A study of Mus musculus with 4 samples.

Results

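The 31 genes described here code for proteins that shape chromosomes inside the nucleus. They fall into CTCF with the cohesin ring and its loading and release factors (11 genes), the nuclear lamina with the LINC complex (11 genes), and the enzymes and readers of histone H3 lysine 9 (H3K9) methylation (9 genes). They were chosen by symbol, all 31 were found among the 31828 genes of the expression table, and all 31 were among the 14116 genes with a mean of at least 1 TPM that were tested. TPM is the abundance of a gene's transcripts per unit of their length, as a share of the whole library, so levels of different genes can be set against each other.

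RNA was sequenced from AML12 cells, an immortalised line of mouse hepatocytes, with 2 libraries each from cells grown flat in dishes (2D) and from cells inside a gel of Matrigel, which is extracted from basement membrane (3D). All cells had received 1 mM hydroxyurea, which blocks ribonucleotide reductase and holds cells at the start of DNA replication, a treatment that lasted 24 h in the 2D and 36 h in the 3D cultures, so culture and treatment time cannot be told apart. The study compared genome folding between these cultures, and the genes below code for much of the folding machinery. Whether the 2 libraries of a culture came from separate cultures was not stated in the labels, so every p-value measures only the spread between libraries, which may be technical.

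Cohesin is a ring of SMC1A, SMC3, RAD21 and a STAG subunit. It is loaded by NIPBL and MAU2, extrudes chromatin loops until it meets CTCF, and is released by WAPL together with the PDS5 proteins. The lamina is a mesh of A-type and B-type lamins under the inner nuclear membrane, tied to chromatin by emerin (Emd), LAP2 (Tmpo), BAF (Banf1) and the lamin B receptor (Lbr), and to the cytoskeleton by the SUN and nesprin proteins of the LINC complex. Methyl groups on H3K9 are written by SUV39H1, SUV39H2, SETDB1 and the pair G9a (Ehmt2) and GLP (Ehmt1) and are read by the HP1 proteins (Cbx5, Cbx1 and Cbx3), and chromatin with this mark is often found at the lamina.

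The libraries held between 13891 and 14256 genes at 1 TPM or more, and mitochondrial genes made up 5.37% to 6.78% of their TPM. Of the hepatocyte markers, the nuclear receptor gene Hnf4a stood at 56.7 and 57.6 TPM in 2D and at 164 and 156 TPM in 3D, while the albumin gene Alb stood at only 0.82 and 1.20 TPM in 2D and at 12.7 and 10.0 TPM in 3D. The keratin genes Krt8 and Krt18 went the other way, with Krt18 at 6286 and 6128 TPM in 2D and at 3275 and 3319.5 TPM in 3D, and with them the summed level of the 16 hepatocyte markers was 9667 and 9468 TPM in 2D and 5711 and 5789 TPM in 3D. Of these 16 markers 6 were under 1 TPM in every library, among them Cps1, Tat and Serpina1a. All 7 endothelial markers were under 1 TPM in every library. The summed level of 9 leukocyte markers was 22.7 to 23.5 TPM in 2D and 24.4 to 27.9 TPM in 3D. Cd68 was 18.3 to 25.5 TPM of it, Cd3e was at 2.00 and 1.72 TPM in 2D and under 1 TPM in 3D, Lyz2 was at 0.77 to 1.67 TPM, and Ptprc was under 1 TPM throughout. The summed level of 9 fibroblast and stellate markers was 35.5 to 38.7 TPM in 2D and 19.4 to 20.4 TPM in 3D, nearly all of it Des. In RNA from whole cultures, fewer cells of a type and less RNA per cell cannot be told apart.

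In 3D, 18 of the 31 genes differed from 2D with an adjusted p under 0.05 (limma on log2(TPM + 1), Benjamini-Hochberg adjustment over all genes tested), of which 4 were higher and 14 were lower. The rate over all genes tested was 50.5%, with 23.4% higher and 27.1% lower. The members' share of 58.1% was therefore near the rate of the whole table, and their split leaned to the lower side. Their median log2 fold change was -0.15, beside -0.04 for all genes tested. In 25 of the 31 both libraries of one culture lay above both of the other, which held for 77.5% of all genes tested. The shifts were small: 5 of the 31 moved by more than 0.5 on the log2 scale with an adjusted p under 0.05, a rate that was 27.1% over all genes, and none moved by more than 2 with an unadjusted p under 0.05, as 1.3% of all genes did. Smc1a, Nipbl, Lmnb1, Emd, Tmpo, Banf1, Sun2 and Ehmt2 passed the threshold in the same direction under all 14 alternatives that were run. Leaving out 3D replicate 1 reduced the members past the threshold to 8 (33.4% of all genes in that fit), and leaving out 3D replicate 2 reduced them to 9 (33.9%). Without 2D replicate 1 or 2D replicate 2 there were 12 (42.1%) and 13 (42.2%). With no filter on low values there were 11. The rate over all 31828 genes in that fit was 18.8%. It is not a like background, since it includes genes under a mean of 1 TPM, and all members were above that level. Rad21, Mau2, Pds5b, Lmnb2, Syne1, Suv39h1 and Cbx5 no longer passed, with adjusted p between 0.0528 (Suv39h1) and 0.105 (Cbx5).

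**Figure D1:**
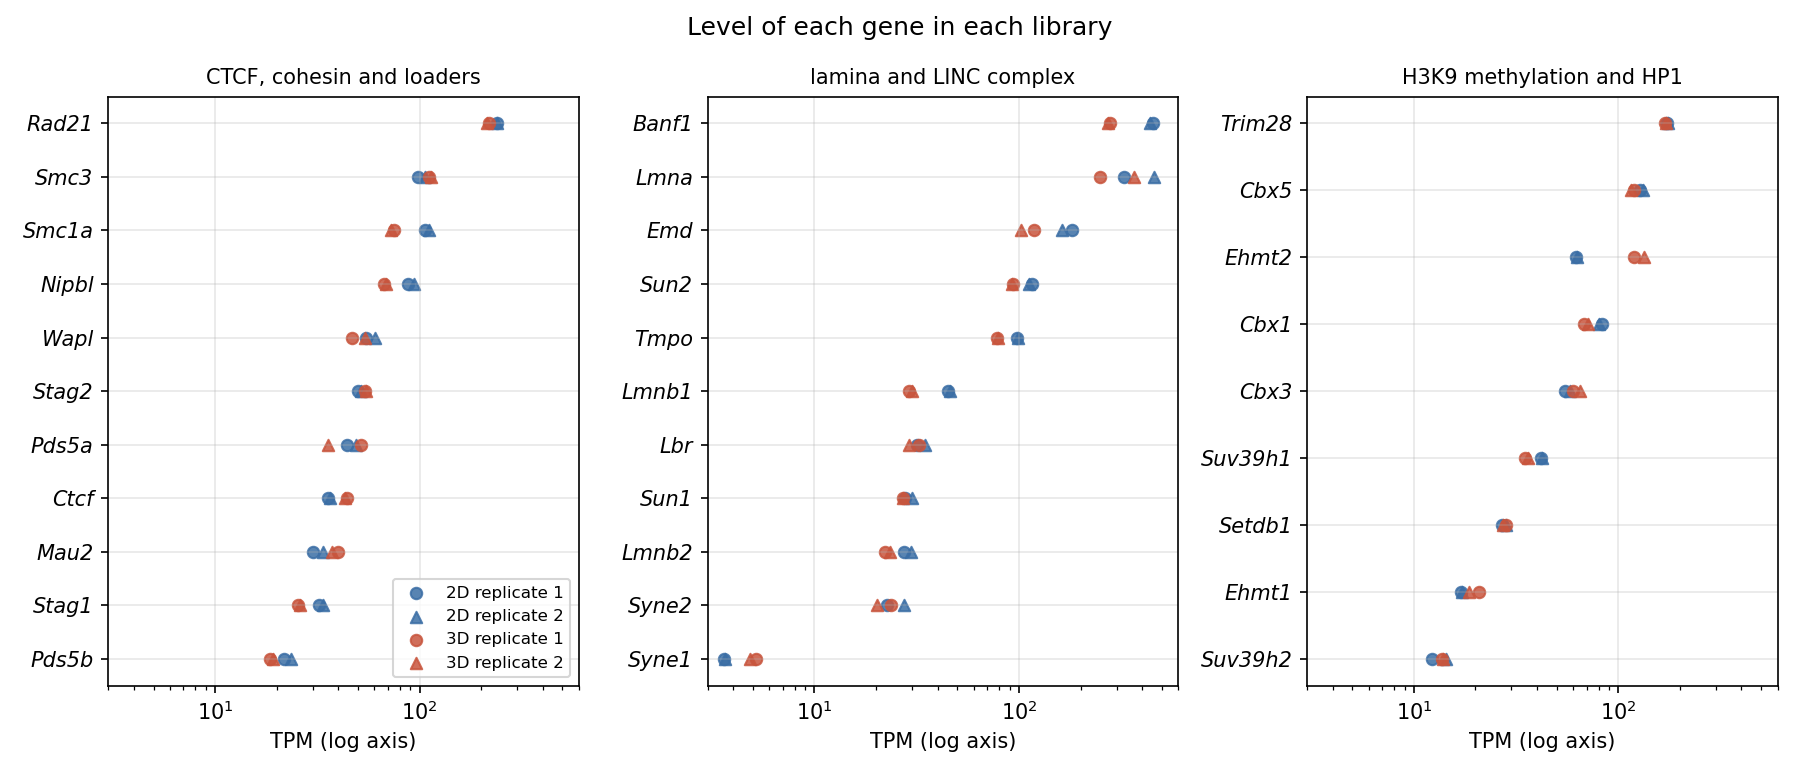
TPM (log axis) of each of the 31 genes in each of the 4 libraries, in 3 panels for CTCF and cohesin, lamina and LINC complex, and H3K9 methylation and HP1. Circles are replicate 1 and triangles replicate 2, blue for 2D and red for 3D. Genes are ordered by their mean over the 4 libraries, which was highest for Rad21, Banf1 and Trim28, with Lmna above Banf1 in replicate 2 of both cultures. Syne1 was the lowest gene, and the red points of Ehmt2 lay well to the right of the blue ones.

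Among CTCF, cohesin and its loaders, the ring subunit Smc1a, the loader Nipbl and the STAG paralog Stag1 fell in 3D, while Ctcf and the loader partner Mau2 rose. In all, 2 of the 11 genes rose and 5 fell, together 63.6%, beside 50.5% of all genes tested. Their median log2 fold change was -0.15. Their summed level went from 821 ± 27.4 TPM in 2D to 745 ± 10.2 TPM in 3D (mean ± SD, n = 2 each, ratio 0.908). Leaving out 3D replicate 1 left 2 of the 7 calls and leaving out 3D replicate 2 left 3.

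Smc1a codes for a coiled-coil ATPase of the ring. Its level was 107 and 111 TPM in 2D and 75.1 and 72.4 TPM in 3D, so both 3D libraries lay below both 2D libraries by far more than the replicates differed. The ratio of the means was 0.677, and the gene fell by 0.56 on the log2 scale (SE 0.05, limma adjusted p 0.00146). Its partner Smc3, the other ATPase of the ring, stood at 98.2 and 106 TPM in 2D and at 112 and 114 TPM in 3D, which did not pass the test (log2 fold change 0.14, SE 0.05, limma adjusted p 0.0897). The level of Smc1a divided by that of Smc3 was 1.08 and 1.05 in 2D and 0.673 and 0.637 in 3D. The 2 ATPase transcripts were thus at similar levels in 2D, and Smc1a was the lower of the pair in 3D.

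Rad21, the kleisin that closes the ring, was the most abundant gene of the group. It stood at 240.0 and 239.7 TPM in 2D and at 218 and 214 TPM in 3D, and it fell by 0.15 on the log2 scale (SE 0.04, limma adjusted p 0.0256). That call was lost when any of the 4 libraries was left out, with an adjusted p of up to 0.163 without 3D replicate 2. Stag1 and Stag2 code for alternative subunits that bind RAD21. Stag1 stood at 32.2 and 33.9 TPM in 2D and at 25.3 and 26.1 TPM in 3D, a fall of 0.35 (SE 0.06, limma adjusted p 0.00941) whose call was lost without 3D replicate 1 (adjusted p 0.0566). Stag2 stood at 50.3 and 51.7 TPM in 2D and at 53.9 and 54.6 TPM in 3D, which did not pass (log2 fold change 0.09, SE 0.05, limma adjusted p 0.189). Stag1 made up 39.1% and 39.6% of the summed STAG level in 2D and 32.0% and 32.3% in 3D, while the sum itself was 82.5 and 85.5 TPM in 2D and 79.2 and 80.7 TPM in 3D. The composition of the STAG pool differed between the cultures by 7.19 percentage points, against a spread of 0.39 points (SD) in 2D and 0.25 points in 3D.

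Of the loading complex, Nipbl fell and Mau2 rose. Nipbl, which activates the ATPase of cohesin, was at 87.5 and 94.2 TPM in 2D and at 67.3 and 68.6 TPM in 3D (log2 fold change -0.41, SE 0.05, limma adjusted p 0.00444). Mau2, its binding partner, was at 30.1 and 33.6 TPM in 2D and at 40.0 and 37.5 TPM in 3D (log2 fold change 0.27, SE 0.08, limma adjusted p 0.0410). The call of Mau2 was lost without 2D replicate 1, 3D replicate 1 or 3D replicate 2, with an adjusted p of up to 0.169 without 3D replicate 1. The level of Nipbl divided by that of Mau2 was 2.91 and 2.80 in 2D and 1.68 and 1.83 in 3D.

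Of the release factors, Wapl stood at 55.0 and 60.5 TPM in 2D and at 46.7 and 53.8 TPM in 3D and did not pass the test (log2 fold change -0.20, SE 0.09, limma adjusted p 0.135). Pds5a stood at 44.0 and 49.1 TPM in 2D and at 51.7 and 35.6 TPM in 3D, so its 3D libraries lay on either side of the 2D libraries (log2 fold change -0.11, SE 0.19, limma adjusted p 0.639). Without 3D replicate 2 its log2 fold change turned to 0.15. Pds5b, at 21.8 and 23.6 TPM in 2D and 18.6 and 19.2 TPM in 3D, fell by 0.25 (SE 0.07, limma adjusted p 0.0397), and the call was lost without 2D replicate 2 or either 3D library (adjusted p of up to 0.160 without 3D replicate 1).

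Ctcf, the zinc finger protein that stops cohesin at loop anchors, was at 35.5 and 36.5 TPM in 2D and at 44.0 and 43.0 TPM in 3D. It rose by 0.27 (SE 0.05, limma adjusted p 0.0137), and the call was lost without either 3D library (adjusted p 0.0799 and 0.0615). Per unit of Ctcf there was less Rad21 in 3D, with a ratio of their levels of 6.76 and 6.57 in 2D and of 4.96 and 4.97 in 3D. Nipbl divided by Wapl, a loader against a releaser, was 1.59 and 1.56 in 2D and 1.44 and 1.27 in 3D. The cultures did not overlap, as they did not for 77.5% of all genes tested, and the ratio itself was not tested.

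Of the lamina and LINC genes, 1 of 11 rose and 6 fell in 3D, together 63.6%, beside 50.5% of all genes tested. The chromatin-binding envelope genes Banf1 and Emd and the B-type lamin Lmnb1 moved furthest, and these 3 were the members of the group past 0.5 on the log2 scale. The median log2 fold change was -0.31. Their summed level was 1329 and 1437 TPM in 2D and 959.6 and 1045 TPM in 3D, a ratio of the means of 0.725.

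Banf1, a small protein that bridges DNA and the LEM-domain proteins of the envelope, had the highest mean level of these genes over the 4 libraries, although Lmna was above it in replicate 2 of both cultures. It stood at 452 and 436 TPM in 2D and at 280.2 and 273 TPM in 3D, and it fell by 0.68 (SE 0.04, limma adjusted p 0.000553), the lowest fold change among the 31. Emd, which codes for the LEM-domain protein emerin, stood at 181 and 163 TPM in 2D and at 118 and 103 TPM in 3D and fell by 0.64 (SE 0.09, limma adjusted p 0.00520). For both genes the libraries of the 2 cultures were well apart. Tmpo, another LEM-domain gene, was at 97.6 and 99.3 TPM in 2D and at 77.8 and 78.6 TPM in 3D and fell by 0.33 (SE 0.04, limma adjusted p 0.00392). Lbr, described with the lamins below, also binds chromatin and did not pass the test.

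Other genes lie within Emd or share sequence with Banf1. Gm14686, annotated as a transcribed processed pseudogene (chrX:74261032-74261374, GRCm38), lies within the bounds of Emd on the same strand and was listed at 57.4 and 58.2 TPM in 2D and at 36.7 and 37.7 TPM in 3D. The sum of both was 238 and 221 TPM in 2D and 155 and 140.3 TPM in 3D, a log2 difference of the means of -0.64. TPM is per unit of length and the pseudogene is shorter than Emd. The sum is therefore not the level Emd would have if all these reads were its own. The Banf1 transcript that was searched has a stretch nearly identical to a stretch of the Eif1ad transcript. Whether the stretches run in the same direction was not recorded. Eif1ad, its neighbour on the other strand, was listed at 99.5 and 101 TPM in 2D and at 67.9 and 70.4 TPM in 3D. Both were lower in 3D as well. The reads were aligned with a strand setting, but how the quantification divided reads that fit more than 1 gene was not tested.

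Of the lamins, Lmnb1 was at 44.9 and 45.8 TPM in 2D and at 29.1 and 30.1 TPM in 3D and fell by 0.60 (SE 0.05, limma adjusted p 0.00158). Lmnb2, the other B-type lamin gene, was at 27.3 and 29.6 TPM in 2D and at 22.0 and 23.4 TPM in 3D and fell by 0.31 (SE 0.07, limma adjusted p 0.0229). Its call was lost without 2D replicate 2 or either 3D library, with an adjusted p of up to 0.107 without 3D replicate 1. Lmnb1 made up 62.2% and 60.7% of the summed B-type level in 2D and 56.9% and 56.3% in 3D. The A-type lamin gene Lmna was far more abundant than both and far more variable, at 325 and 456 TPM in 2D and at 250.4 and 364 TPM in 3D. Its replicates differed by 33.4% of their mean in 2D and 37.1% in 3D, with replicate 2 above replicate 1 in both, and the log2 fold change of -0.35 (SE 0.24) did not pass the test (limma adjusted p 0.280). The level of Lmna divided by the summed B-type lamins was 4.51 and 6.05 in 2D and 4.90 and 6.81 in 3D, and these ranges overlapped. Lbr, the lamin B receptor, was at 31.8 and 34.9 TPM in 2D and at 32.5 and 28.9 TPM in 3D, and the cultures overlapped as well (log2 fold change -0.12, SE 0.09, limma adjusted p 0.314).

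Of the LINC genes, Sun2 fell and Syne1 rose. Sun2, an inner membrane protein that binds lamins, was at 116 and 112 TPM in 2D and at 93.8 and 92.0 TPM in 3D (log2 fold change -0.29, SE 0.04, limma adjusted p 0.00633). Sun1, its paralog, was at 27.9 and 30.1 TPM in 2D and at 27.2 TPM in both 3D libraries, which did not pass (log2 fold change -0.09, SE 0.06, limma adjusted p 0.315). Sun2 held 80.6% and 78.8% of the SUN level in 2D and 77.5% and 77.2% in 3D.

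The nesprins span the outer membrane, and nesprin-1 and nesprin-2 bind actin. Syne1 (nesprin-1), the lowest of the 31 genes, was at 3.62 and 3.65 TPM in 2D and at 5.15 and 4.82 TPM in 3D and rose by 0.37 (SE 0.10, limma adjusted p 0.0326). That call was lost when any of the 4 libraries was left out, with an adjusted p of up to 0.147 without 3D replicate 1. Syne2 (nesprin-2) was at 22.7 and 27.3 TPM in 2D and at 23.6 and 20.1 TPM in 3D, where the cultures overlapped (log2 fold change -0.18, SE 0.12, limma adjusted p 0.278). Syne1 made up 13.8% and 11.8% of the summed level of Syne1 and Syne2 in 2D and 17.9% and 19.3% in 3D. Syne2 thus remained the higher of the pair. Syne3 (nesprin-3), counted below with the other envelope genes, was at 17.6 and 18.3 TPM in 2D and at 25.3 and 23.1 TPM in 3D. It rose by 0.41 (SE 0.07, limma adjusted p 0.0109), and its 3D mean of 24.2 TPM was above the 21.9 TPM of Syne2. The 3D libraries of both genes overlapped, so their order is not settled.

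**Figure D2:**
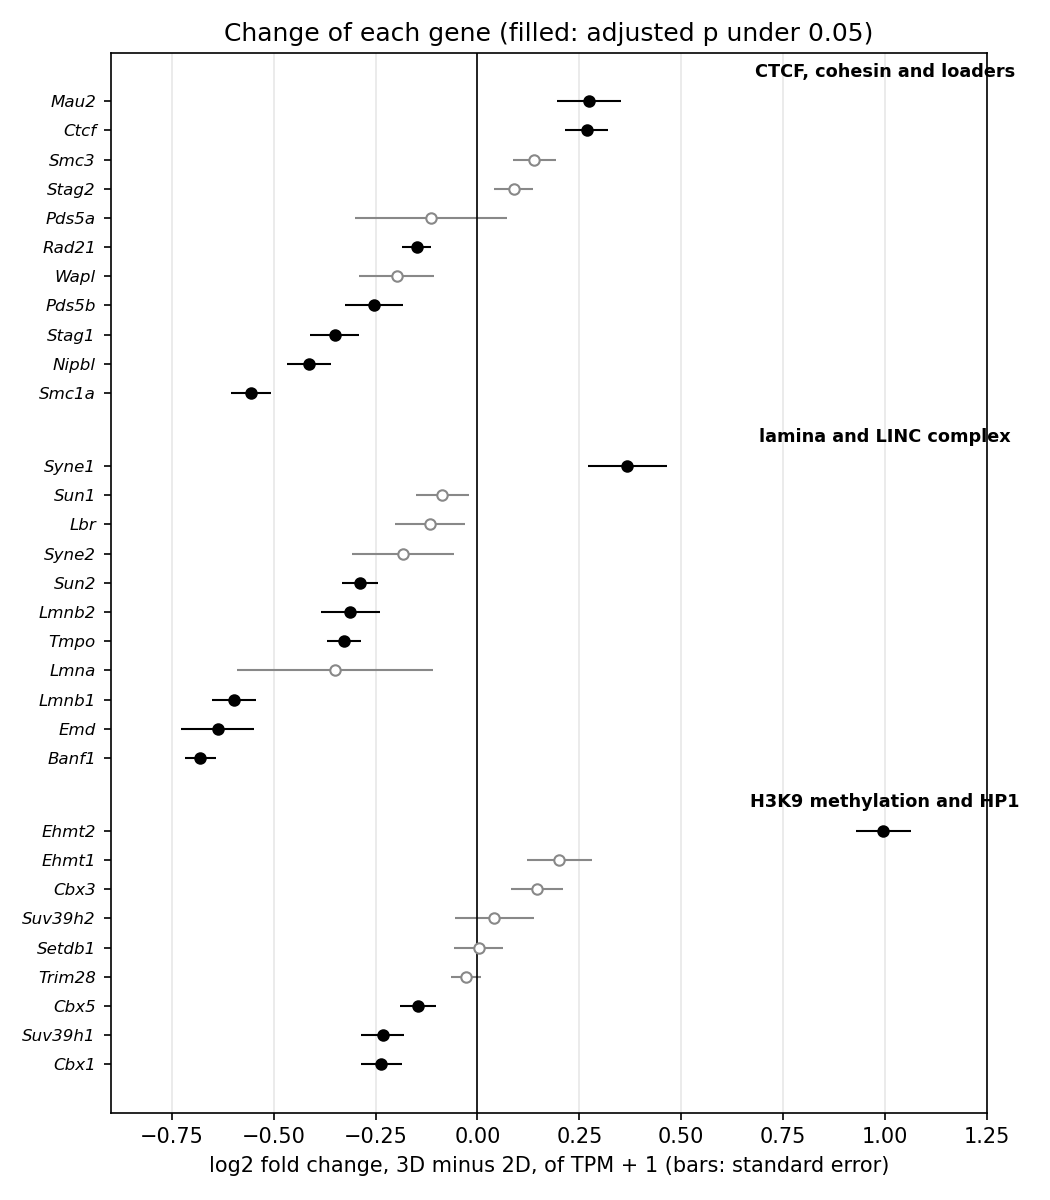
The log2 fold change of TPM + 1, 3D minus 2D, of each gene with its standard error as a horizontal bar, ordered within the 3 groups. Filled points had an adjusted p under 0.05, and the vertical line marks no change. Ehmt2 stood alone on the right at 1.00, and Banf1, Emd, Lmnb1 and Smc1a had the lowest values, from -0.68 to -0.56.

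Of the genes for H3K9 methylation and HP1, Ehmt2 rose in 3D (ratio of means 2.01) while Suv39h1, Cbx1 and Cbx5 fell slightly and the other 5 did not pass the test. Those that passed were 44.4% of the group, beside 50.5% of all genes tested. The median log2 fold change of the 9 genes was 0.0029. Their summed level was 599 and 609 TPM in 2D and 633 and 651 TPM in 3D, and the rise of Ehmt2 was larger than the rise of the sum. Leaving out 2D replicate 2 left 2 of the 4 calls, and leaving out any other library left only that of Ehmt2.

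Ehmt2 codes for G9a, which places mono- and dimethyl groups on H3K9 in euchromatin. It lies at chr17:34898469-34914052 (GRCm38). Its level was 62.3 and 62.8 TPM in 2D and 119 and 133 TPM in 3D, the highest fold change among the 31 genes at 1.00 (SE 0.07, limma adjusted p 0.000772). The call held under every alternative that was run. Ehmt1, its partner GLP, was at 16.9 and 17.1 TPM in 2D and at 20.8 and 18.6 TPM in 3D, which did not pass (log2 fold change 0.20, SE 0.08, limma adjusted p 0.0946). Their ratio, Ehmt2 over Ehmt1, was 3.68 in both 2D libraries and 5.72 and 7.14 in 3D. No listed gene overlapped Ehmt2, and no near-identical stretch was found in another transcript.

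Of the methyltransferases of constitutive heterochromatin and their recruiter, none rose. Suv39h1, which trimethylates H3K9 at pericentromeric repeats, was at 42.0 and 42.1 TPM in 2D and at 35.0 and 36.3 TPM in 3D and fell by 0.23 (SE 0.05, limma adjusted p 0.0210). Its call was lost when any of the 4 libraries was left out, with an adjusted p of up to 0.109 without 3D replicate 1. Suv39h2 was at 12.3 and 14.4 TPM in 2D and at 13.6 and 13.8 TPM in 3D (log2 fold change 0.04, SE 0.10, limma adjusted p 0.742). Setdb1, which is recruited to retroelements, was at 27.0 and 28.2 TPM in 2D and at 28.1 and 27.2 TPM in 3D (log2 fold change 0.0029, SE 0.06, limma adjusted p 0.971), and it overlaps Cers2 on the other strand, a gene at 206 to 286 TPM. Trim28, the corepressor that brings SETDB1 to zinc finger proteins, was at 173 and 175 TPM in 2D and at 169.9 and 171 TPM in 3D (log2 fold change -0.03, SE 0.04, limma adjusted p 0.541). For Suv39h2 and Setdb1 the cultures overlapped, and for Trim28 the gap between the cultures was close to the gap between the 2D libraries.

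Among the HP1 readers, Cbx5 (HP1 alpha) was at 128 and 132 TPM in 2D and at 119 and 115 TPM in 3D and fell by 0.15 (SE 0.04, limma adjusted p 0.0478), a call lost when any of the 4 libraries was left out (adjusted p of up to 0.222 without 3D replicate 2). Cbx1 (HP1 beta) was at 83.5 and 80.1 TPM in 2D and at 67.8 and 70.8 TPM in 3D and fell by 0.24 (SE 0.05, limma adjusted p 0.0182), a call lost without 2D replicate 1 or either 3D library (adjusted p of up to 0.0984 without 3D replicate 1). Cbx3 (HP1 gamma) was at 54.8 and 57.9 TPM in 2D and at 60.1 and 65.0 TPM in 3D and did not pass (log2 fold change 0.15, SE 0.06, limma adjusted p 0.119). Stretches nearly identical to Cbx3 were found in transcripts of 8 other genes, and the 5 of these genes in the expression table summed to 3.91 to 4.95 TPM per library. The share of Cbx3 in the summed HP1 level was 20.6% and 21.5% in 2D and 24.3% and 25.9% in 3D, and the sum was 266 and 270.0 TPM in 2D and 247 and 251 TPM in 3D.

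**Figure D3:**
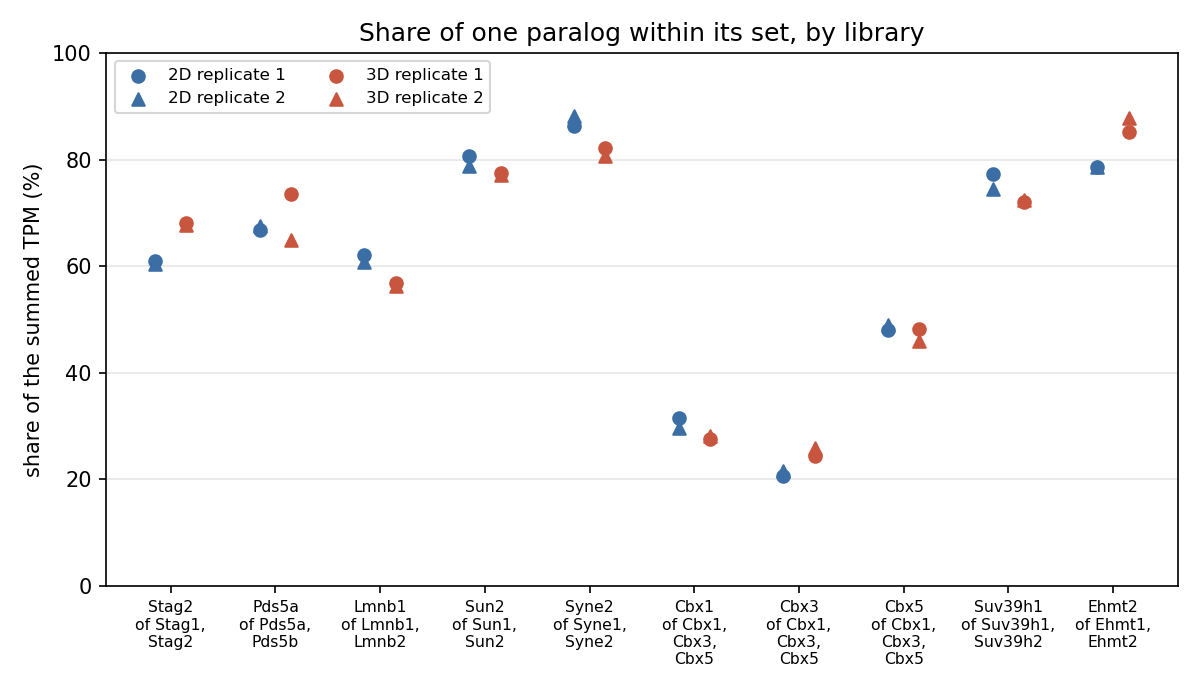
Share of 1 gene in the summed TPM of its paralog set (percent, from 0 to 100), with 1 point for each library, circles for replicate 1 and triangles for replicate 2, blue for 2D and red for 3D. The share of Stag2 was 60.7% on average in 2D and 67.9% in 3D, the share of Lmnb1 was lower in both 3D libraries, and the share of Pds5a overlapped between the cultures.

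The promoters of the genes that fell were read for short motifs known from promoters of cell-cycle genes. RefSeq windows of 300 bases (GRCm38.p6), 250 before and 50 after each annotated start, were at hand for 27 of the 31 genes, in 39 windows, and not for Rad21, Stag2, Nipbl and Lmnb1. Motifs were exact matches on either strand to the E2F site (TTTGGCGC, TTTCGCGC, TTTCCCGC or TTTGCCGC), the CHR element (TTTGAA), a CHR variant (TTCGAA) and the CCAAT box (CCAAT), and none of these strings contains another. An E2F match was found in 7 of 27 genes (25.9%), beside 4.58% of the 9844 tested genes with a window. By window it was 7 of 39 (17.9%), beside 2.26% of all 32851 windows. The latter include windows of genes that were not tested, so the rate among tested genes is the closer background. The 7 were Smc1a, Stag1, Tmpo, Banf1 and Suv39h1, which fell, and Pds5a and Cbx3, which did not pass the test, so it was 5 of the 11 lower genes with a window, 0 of the 4 higher genes and 2 of the 12 others. A CCAAT box was found in 14 of 27 genes (51.9%, beside 43.1% of tested genes), with 9 of the 11 lower genes, 0 of the 4 higher genes and 5 of the others. A CHR match was found in 6 of 27 (22.2%, beside 14.5%), and its variant in Mau2 only (3.70%, beside 2.38%). The splits by direction have no background, since the shares among all tested genes that fell or rose were not counted. These matches are descriptions of letters and not binding sites, and their part in the results was not tested.

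The stretches around the E2F matches of the 5 genes that fell are printed to show where each match lies, with the match in capitals and up to 40 bases on each side, on the strand of the gene. The match began 37 bases after the annotated start for Smc1a (chrX:152016425-152016477), and 17 bases before it for Stag1 (chr9:100643391-100643478). For Banf1 (chr19:5366910-5366997), Suv39h1 (chrX:8074378-8074465, match on the other strand) and Tmpo (chr10:91170698-91170785) it began 81, 64 and 195 bases before the start. Of the 4 strings of the E2F site, Suv39h1 held TTTGCCGC and the other genes held TTTCCCGC. These starts are those of RefSeq. Those of Stag1 and Tmpo lie 45.6 kb and 10.8 kb inside the Ensembl gene, that of Banf1 lies 231 bases upstream of it, and the Banf1 stretch also lies inside Eif1ad, which runs the other way. Tmpo, Banf1 and Suv39h1 each had a second window with no E2F match.
Smc1a: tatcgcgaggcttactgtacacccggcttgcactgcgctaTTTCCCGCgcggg
Stag1: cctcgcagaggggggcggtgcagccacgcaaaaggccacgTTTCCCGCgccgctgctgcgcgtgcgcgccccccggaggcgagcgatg
Banf1: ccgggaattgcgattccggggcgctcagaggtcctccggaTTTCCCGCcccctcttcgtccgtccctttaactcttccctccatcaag
Suv39h1: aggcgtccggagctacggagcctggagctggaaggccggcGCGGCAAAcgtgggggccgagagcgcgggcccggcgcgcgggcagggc
Tmpo: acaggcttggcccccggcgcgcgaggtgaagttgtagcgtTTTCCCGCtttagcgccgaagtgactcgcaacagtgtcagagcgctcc

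Ehmt2, the member with the largest rise, had 2 such windows, and neither held any of these motifs. The window at its annotated gene start (chr17:34898224-34898523, forward strand) is printed whole.
Ehmt2: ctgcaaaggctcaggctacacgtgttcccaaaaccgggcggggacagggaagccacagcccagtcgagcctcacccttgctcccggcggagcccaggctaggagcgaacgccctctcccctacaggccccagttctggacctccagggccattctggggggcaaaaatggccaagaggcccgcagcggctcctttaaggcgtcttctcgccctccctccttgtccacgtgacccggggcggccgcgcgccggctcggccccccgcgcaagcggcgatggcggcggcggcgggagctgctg

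The members were set beside lists of related genes. Over all genes tested 50.5% passed the test, 23.4% higher and 27.1% lower in 3D. Among 20 other regulators of cohesin, 15 were tested, 1 rose and 8 fell (together 60%), with a median log2 fold change of -0.43. The lowest were Bub1 and Sgo2a, which protect centromeric cohesion, and Brca2, at -1.20, -0.90 and -0.83. Ppp2r5c, a regulatory subunit of the phosphatase PP2A, rose by 0.25 (73.5 and 64.9 TPM in 2D, 81.8 and 83.3 TPM in 3D). The 5 that were not tested for low levels included the meiotic subunits Smc1b, Rec8, Rad21l and Stag3. In condensin and the SMC5/6 complex, the other SMC complexes, 2 of 14 rose and 10 fell (together 85.7%), with a median of -0.52. The condensin subunits Smc2 (74.8 and 72.9 TPM in 2D, 39.9 and 40.9 TPM in 3D) and Ncapg fell by 0.85 and 0.83, and the SMC5/6 genes Nsmce4a and Nsmce2 rose by 0.36 and 0.25.

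For the envelope, 23 of 24 other nuclear envelope genes were tested. Of these 6 rose and 6 fell (together 52.2%, beside 50.5% of all genes tested), and their median of -0.09 was close to that of all genes. Icmt, which methylates the carboxyl end of farnesylated proteins such as lamins, rose by 0.80 (23.7 and 25.7 TPM in 2D, 43.5 and 43.8 TPM in 3D), and the LEM-domain gene Lemd2 rose by 0.47. Vrk1, a kinase that phosphorylates BAF, fell by 0.81, and Tmem43 fell by 0.58. Of 28 nuclear pore genes 1 rose and 14 fell (together 53.6%), with a median of -0.32. Nup43 and Ndc1 had the lowest changes that passed the test, at -0.84 and -0.80, and Ahctf1 (ELYS), which starts pore assembly on chromatin, rose by 0.31.

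Of 35 other H3K9 and heterochromatin factors 8 rose and 13 fell (together 60%, beside 50.5% of all genes tested), with a median of -0.12. Chaf1a, a subunit of the histone chaperone CAF-1, fell by 0.70 (52.7 and 53.1 TPM in 2D, 31.7 and 32.6 TPM in 3D), and Pphln1, of the HUSH complex, fell by 0.64. The H3K9 demethylase genes Kdm7a and Kdm4b rose by 0.54 and 0.39, and Mecom rose by 0.67 from a low level (1.87 and 1.90 TPM in 2D, 3.67 and 3.51 TPM in 3D).

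Genes of the cell cycle differed between the same libraries. Of 40 S phase genes 32 fell and 2 rose (together 85%, median -0.52), beside 50.5% of all genes tested that passed. Their summed level was 2303 and 2292 TPM in 2D and 1581 and 1607 TPM in 3D. Of 49 G2/M genes 41 fell and 0 rose (together 83.7%, median -0.62), with 9352 and 9396 TPM in 2D and 6125 and 6150.2 TPM in 3D. The largest fall was that of Ube2c, at 733 and 731 TPM in 2D and 279 and 292 TPM in 3D. Lbr is on the G2/M list, as are Bub1, Plk1 and Smc4 of the lists above, and Chaf1b, Hells and Uhrf1 are on both the S phase and the heterochromatin list. The part of the cell cycle genes in the changes of the members was not tested.

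**Figure D4:**
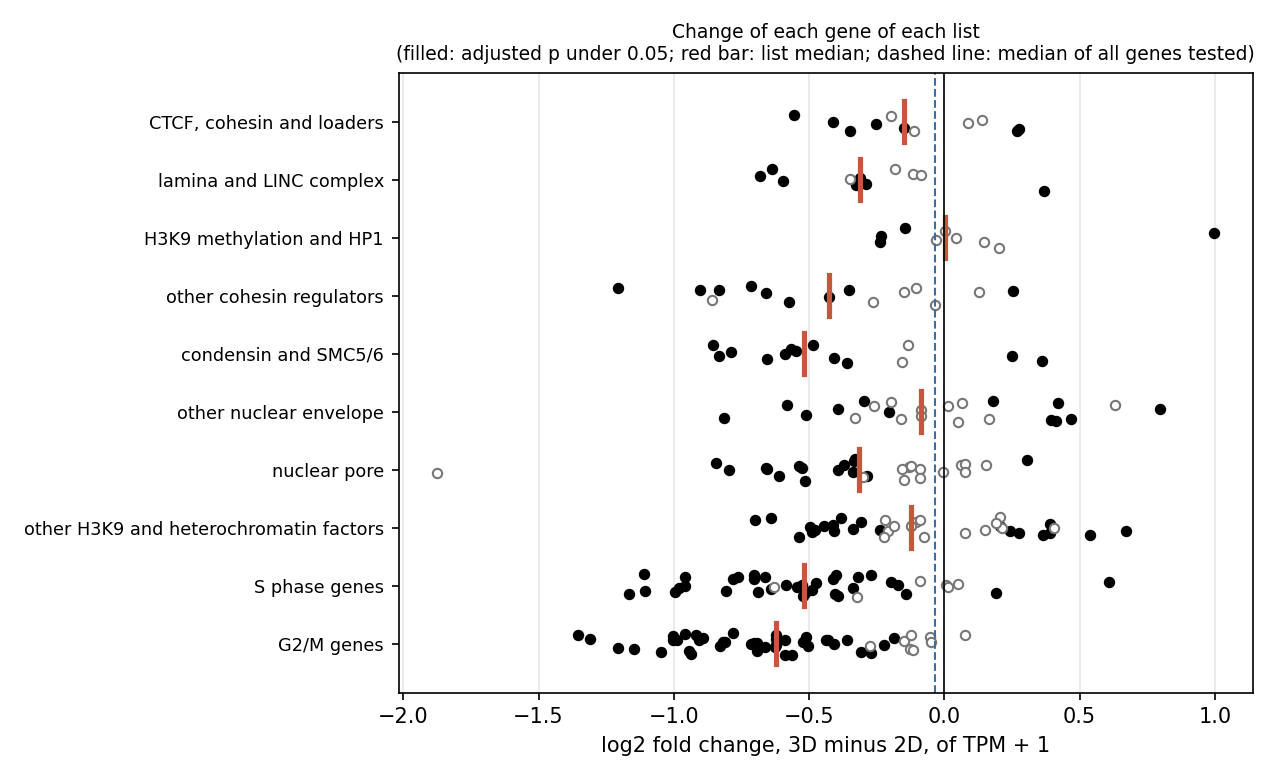
The log2 fold change of TPM + 1, 3D minus 2D, of each tested gene of the 3 member groups and of 7 other lists, 1 point per gene, spread vertically at random within a list for visibility. Filled points had an adjusted p under 0.05, red bars are list medians, and the dashed line is the median of all genes tested (-0.04). The medians were -0.31 for the lamina and LINC genes, -0.52 for condensin and SMC5/6 and for S phase genes, and -0.62 for G2/M genes.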

How the data were processed

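RNA-seq was analysed in 4 libraries of AML12 cells, 2 from 2D and 2 from 3D cultures, grouped by the labels. The deposited values are TPM per gene, made by the authors with cutadapt 1.8.3, Trimmomatic 0.36, HISAT2 2.0.5 (GRCm38, stranded) and StringTie 1.3.4 with Ensembl release 93, per the paper's methods and the submitters' processing notes. Each library sums to the same total, so its depth is unknown, no interval that needs read counts could be given, and a lower TPM is a lower share of the library. The table also holds the authors' fold changes and p-values from DESeq2, which were not used. The libraries on genome folding were not used here.

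Genes with a mean of at least 1 TPM entered a limma model (version 3.58.1, under R 4.3.3, with a trended and robust prior variance) on log2(TPM + 1). Culture was its one factor, p-values were two-sided, and they were adjusted over all of these genes by the Benjamini-Hochberg method. Fold changes on this scale understate the change of low genes. The test was planned for TPM because read counts were not among the files. An exact permutation test of 2 against 2 libraries cannot give a p under 0.333 and was not used. Same-numbered libraries did not deviate together (correlation -0.05 over 14116 genes), so replicate numbers were not taken as pairs. The script was tested on simulated data.

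The members and all lists (other cohesin regulators, condensin and SMC5/6, other nuclear envelope, nuclear pore, other H3K9 and heterochromatin factors, S phase, G2/M, and markers of hepatocytes, cholangiocytes, fibroblasts and stellate cells, endothelial cells and leukocytes) were chosen with earlier results of these data known. All 31 members are named. Of each other list, the 3 genes with the highest mean TPM could be named. So could up to 3 of the highest and 3 of the lowest changes past the threshold. Single markers, Syne3 and genes on more than 1 list were named after their values were seen. Ratios of 1 gene to another were not in the plan and were not tested. Of 7 cholangiocyte markers 2 were under 1 TPM throughout, and their sum was 2322 to 2460.0 TPM, within which Spp1 (166 and 138 TPM in 2D, 764 and 786 TPM in 3D) and Sox9 rose and Krt7 and Krt19 fell. Overlapping genes were found from the coordinates in the expression table. Stretches of at least 200 bases with at least 95% identity were found with BLAST 2.17.0 between GENCODE M21 transcripts, 1 per gene. Promoter windows are from RefSeq. Tables and figures were made with Python 3.11.15, pandas 2.3.3 and matplotlib 3.10.9.

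Alternatives were pseudocounts of 0.1 and 5, no filter, a minimum mean of 5 TPM, quantile normalization, median centring, TPM rescaled after removal of the mitochondrial and the 20 most abundant genes, a replicate block, a constant prior variance, each library left out in turn and, added after the data were seen, a fit on transcript length and GC content (splines with 5 degrees of freedom each).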

Additional observations from a re-analysis of the deposited data

How the results depend on the processing

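Over the 10 alternatives with all libraries, 278 of the 309 log2 fold changes of single members kept their direction and their side of the threshold, 23 no longer passed it, 5 newly passed it and 3 changed sign. None of the 18 called members changed sign in any of their 251 values, and 11 of them kept their call with all libraries. The other 7 lost it with no filter, and of these Rad21 and Cbx5 also lost it under quantile normalization (adjusted p 0.0688 and 0.0756), Cbx5 on median centring (0.0533), Pds5b (0.0517) and Cbx5 (0.0805) on rescaling, Rad21 (0.0566) and Cbx5 (0.102) on the correction for length and GC content, and Rad21 (0.0910), Mau2 (0.0622) and Cbx5 (0.112) with a constant prior variance. With no filter on low values the members called were 11, with 4 for cohesin and 2 for H3K9 methylation, as more genes enter the adjustment. With the replicate block, which the check of deviations did not support as a pairing, all genes called were 6248 (44.3%), the members called were 13, and the counts for cohesin and H3K9 methylation were 4 and 2. Of the 7, only Lmnb2 kept its call under the block, and Lmna, which did not pass without it, passed (adjusted p 0.00800). Values that changed sign were the median of the other nuclear envelope genes with a minimum of 5 TPM (0.012), Trim28 under quantile normalization (0.012), and, after correction for length and GC content, the median of H3K9 methylation and HP1 (-0.012), Setdb1 (-0.012) and Syne2 (0.027). The cause was not tested.

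Leaving out each library in turn, where the lone library of a culture is assumed to vary like the others, gave 4720 to 5954 genes called of 14116, 8 to 13 members, 2 to 6 for cohesin, 5 to 6 for the lamina, 1 to 2 for H3K9 methylation, 7 to 11 for other nuclear envelope genes and 10 to 17 for other H3K9 factors. The lowest counts came without a 3D library, except that H3K9 methylation also fell to 1 without 2D replicate 1. The median log2 fold change of H3K9 methylation and HP1 ranged from -0.037 (without 2D replicate 1) to 0.032, that of Setdb1 from -0.026 (without 2D replicate 1) to 0.032, that of Suv39h2 from -0.063 (without 2D replicate 1) to 0.15, and that of Pds5a from -0.38 to 0.15 (without 3D replicate 2). Without 3D replicate 1 the values of H3K9 methylation and of Setdb1 were both -0.020. The differences in paralog shares kept their direction, except those of Pds5a and Pds5b, which turned to -2.28 and 2.28 percentage points without 3D replicate 1. The number of libraries, 2 per culture, limits the precision of every value.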
